A study of Mus musculus with 2 samples.

Results

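Among 23101 cells kept from 2 single-cell libraries of mouse bone marrow derived macrophage cultures, 118 cells carried UMIs (unique molecular identifiers, each tagging 1 captured RNA molecule) of Nrgn or Xcl1 above a set level. They were chosen by that readout: at least 2 UMIs of Nrgn plus Xcl1, a summed level of the pair of at least 3 per 10000 UMIs of the cell, under 5 per 10000 of the B cell receptor genes Cd79a plus Cd79b, and under 10 per 10000 of the neutrophil gene Retnlg. The marrow came from wild-type 129Sv mice and was cultured with 10% FBS and 50 ng/ml M-CSF, a cytokine that supports macrophage growth. From day 7, for 18 h, 1 culture was exposed to Tamm-Horsfall protein (THP, or uromodulin, a protein of kidney tubules) at 1 µg/ml, in a truncated form that does not polymerize, and the other to the vehicle, 5% dextrose. There was 1 library in each group and the labels do not say how many mice gave marrow, so treatment, culture and library cannot be told apart and no difference between them could be tested. Paired values are given with THP first and vehicle second. Intervals are exact 95% intervals (Poisson for levels, Clopper-Pearson for shares) and cover counting error only.

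Nrgn encodes neurogranin, a small protein that binds calmodulin when calcium is low and is best known from neurons. It is also transcribed in megakaryocytes, the large marrow cells that shed platelets. Xcl1 encodes lymphotactin, a chemokine that natural killer (NK) cells and activated T cells secrete and that attracts dendritic cells bearing its receptor Xcr1. Neither is known as a macrophage marker, and marrow plated in M-CSF starts as a mixture of blood cell lineages.

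The 118 cells fell mainly into 2 groups, with the exceptions given below. Those with an Xcl1 UMI carried NK and T cell genes, and most of the others carried Nrgn together with megakaryocyte and platelet genes. This split by a single Xcl1 UMI, and the leading genes of each group, were chosen after the values were seen and are descriptions. Of the 69 cells in the THP library, 47 had an Xcl1 UMI and 22 did not. Of the 49 cells in the vehicle library, 26 had one and 23 did not. The working label of the whole set, lymphoid-like, therefore matched the marker lists in the cells with an Xcl1 UMI and not in most of those without one.

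The rule genes themselves, given as a description since they chose the cells, already fell apart in this way. Cells with an Xcl1 UMI held between 2 and 91 Xcl1 UMIs (median 11) in THP and between 1 and 31 (median 5) in vehicle. Their Nrgn UMIs were few, with a median of 1 in each library and highest values of 12 and 6. Cells without an Xcl1 UMI held between 2 and 312 Nrgn UMIs (median 10) in THP and between 2 and 469 (median 13) in vehicle. Both genes were detected together in 25 THP cells and 14 vehicle cells, with at most 12 and 6 Nrgn UMIs. The Nrgn counts of the 2 kinds overlapped at the low end, since the lower quartiles without an Xcl1 UMI were 5 and 4.5. Just inside the threshold, the lowest summed levels were 3.33 and 3.21 per 10000. Just outside it, the highest were 2.95 and 3.00. Cells with at least 2 UMIs that fell under the level numbered 24 and 16 and were large, with medians of 26905 and 23196 UMIs. The B cell and neutrophil limits removed 1 cell from the THP library and 2 from the vehicle library.

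**Figure D1:**
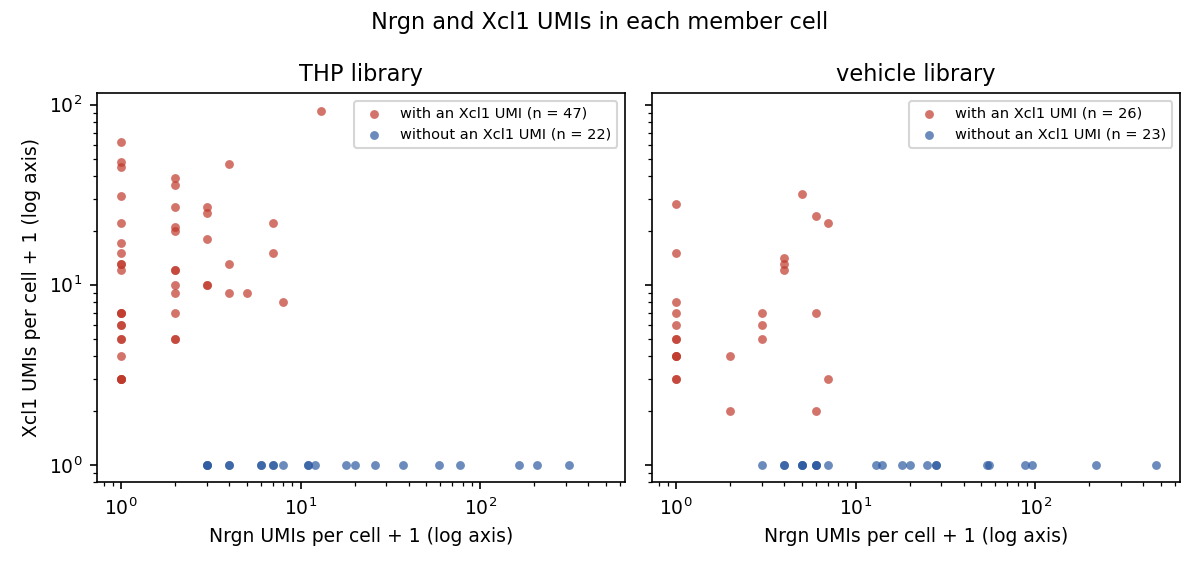
Nrgn UMIs (x axis) against Xcl1 UMIs (y axis) in every chosen cell, each plus 1 on log axes, with the THP library left and the vehicle library right. Red points are cells with an Xcl1 UMI (47 and 26) and blue points cells without one (22 and 23). No red point exceeds 12 Nrgn UMIs, while blue points reach 312 and 469.

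The start regions of 4 genes that stand for the 2 kinds are shown, 1 pair from each kind: Xcl1 and Ncr1, which encodes the NK cell activating receptor NKp46, against Nrgn and Itga2b, which encodes the platelet integrin subunit CD41. Each sequence is the 250 bases before the RefSeq start on GRCm38.p6, read 5′ to 3′ on the gene's strand, from chr1:164935523-164935772 (minus strand) for Xcl1, chr7:4337465-4337714 (plus strand) for Ncr1, chr9:37552746-37552995 (minus strand) for Nrgn and chr11:102469884-102470133 (minus strand) for Itga2b. Capitals mark matches to the RUNX motif TGTGGT on either strand.
Xcl1: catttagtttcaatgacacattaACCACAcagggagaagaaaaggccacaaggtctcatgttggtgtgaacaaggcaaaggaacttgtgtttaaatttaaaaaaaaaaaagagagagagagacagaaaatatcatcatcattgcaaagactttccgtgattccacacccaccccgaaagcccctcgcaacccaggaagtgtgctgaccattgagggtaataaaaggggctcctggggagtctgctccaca
Ncr1: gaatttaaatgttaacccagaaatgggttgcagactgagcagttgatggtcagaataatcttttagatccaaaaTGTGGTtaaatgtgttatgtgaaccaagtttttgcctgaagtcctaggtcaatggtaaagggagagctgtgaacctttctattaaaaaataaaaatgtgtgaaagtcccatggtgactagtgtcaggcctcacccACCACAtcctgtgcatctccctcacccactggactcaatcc
Nrgn: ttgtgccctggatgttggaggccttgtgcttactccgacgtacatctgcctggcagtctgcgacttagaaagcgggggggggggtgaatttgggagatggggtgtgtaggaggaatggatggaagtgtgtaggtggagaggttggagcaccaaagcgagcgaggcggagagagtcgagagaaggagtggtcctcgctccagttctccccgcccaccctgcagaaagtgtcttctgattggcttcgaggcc
Itga2b: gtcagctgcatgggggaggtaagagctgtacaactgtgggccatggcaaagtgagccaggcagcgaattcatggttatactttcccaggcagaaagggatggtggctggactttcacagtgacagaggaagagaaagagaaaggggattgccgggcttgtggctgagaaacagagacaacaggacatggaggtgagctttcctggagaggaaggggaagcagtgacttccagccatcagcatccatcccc
The letters TGTGGT stood once in the Xcl1 window and at 2 places in the Ncr1 window, and were not in these windows of Nrgn and Itga2b. Of all 27025 promoters of this length in the table, 14.2% held them on either strand.

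Motif matches were counted over the 25 genes that led each kind, which were picked for their levels. Of the 25 that led the cells with an Xcl1 UMI, 18 were matched to the promoter table, and 10 of those 18 held TGTGGT (Cd160, Gimap4, Gimap7, Gzmc, Jaml, Klrb1c, Klrk1, Ncr1, Nkg7 and Xcl1). Xcl1 is counted in both the 18 and the 10, although it made the split and its place was fixed in advance. Of the 25 that led the cells without one, 19 were matched and 1 (Gp9) held it. Of 3259 genes at 50 CPM or more, 252 (7.73%) were at least 2-fold higher with an Xcl1 UMI in both libraries and 451 (13.8%) at least 2-fold lower, where CPM are counts per 1000000 UMIs. Over these full sets, the shares with TGTGGT were 18.3% of 191 matched genes and 8.68% of 357. The GATA motif AGATAA stood in 10.3% of all promoters, in 0 of the 18 and in 3 of the 19 (Gp5, Mrvi1 and Myct1). The ETS motif CCGGAA stood in 12.2% of all promoters, in 0 of the 18 and in 1 of the 19 (Pde5a). The T-box motif AGGTGT stood in 12.0% of all promoters, in 1 of the 18 (Nkg7) and in 2 of the 19 (Adgrg1 and Gp9). Over the full sets the shares were 6.28% and 7.28% for GATA, 17.8% and 18.2% for ETS, and 6.28% and 10.4% for T-box. All motifs were searched on both strands, and matches to the RUNX and T-box letters can overlap. Several of these genes belong to families of related neighbours (Gimap, Klr), whose promoters are not independent.

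In the cells with an Xcl1 UMI, the 11 NK cell markers summed to 1836 CPM (interval 1703 to 1977) with THP against 2021 CPM (1845 to 2209) with vehicle. In the cells without one they summed to 16.5 CPM (5.37 to 38.6) and 18.9 CPM (6.93 to 41.1), and in all other kept cells to 15.2 and 25.8 CPM. At least 2 of the 11 markers were detected in 46 of 47 and 26 of 26 cells with an Xcl1 UMI, against 1 of 22 and 0 of 23 without. Median depths were 7262 and 7295.5 UMIs with an Xcl1 UMI, and 7036.5 and 10076 without. Among other kept cells, whose median depths were 16157 and 17281 UMIs, 1.29% and 2.22% held 2 of the markers. After every cell was thinned to 2000 UMIs, which left out 3 THP cells and 1 vehicle cell with an Xcl1 UMI, the shares were 77.3% and 84.0% with an Xcl1 UMI, 0% in each library without one, and 0.255% and 0.392% in other kept cells.

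Ncr1 gave 71 UMIs in 21 of 47 THP cells and 76 UMIs in 22 of 26 vehicle cells with an Xcl1 UMI, or 185 and 317 CPM. It gave no UMI in the cells without one in either library, where the interval reached 12.2 and 11.6 CPM. A floor of 3 counts over that group stands at 9.93 and 9.44 CPM. Nkg7, a cytotoxic granule membrane protein, stood at 401 and 429 CPM with an Xcl1 UMI and gave no UMI without. Those levels were 40.4-fold and 45.4-fold over the floor of 3 counts. Klrb1c, the NK1.1 antigen, stood at 169 and 158 CPM with an Xcl1 UMI and again gave no UMI without. Gzmc, a granzyme of activated killer cells, reached 432 and 258 CPM but in only 16 and 6 cells. Klrd1 and Klrk1, the CD94 and NKG2D receptors, stood at 383 and 433 CPM and at 174 and 346 CPM. Ctsw, a protease of killer cell granules, was detected in 39 of 47 and 25 of 26 of these cells.

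T cell genes were also present in the cells with an Xcl1 UMI. The 12 T cell markers summed to 1135 CPM (1031 to 1247) with THP against 654 CPM (556 to 765) with vehicle. Most of this came from Trbc1 and Trbc2, constant regions of the T cell receptor beta chain, whose unrearranged transcripts NK and innate lymphoid cells also make. Trbc1 stood at 422 and 296 CPM in 40 and 19 cells, and at 0 UMIs in the cells without an Xcl1 UMI. Cd3e, a signalling chain of the T cell receptor, was detected in only 12 of 47 and 3 of 26 cells, and Trac, the alpha chain constant region, in 7 and 3. Among innate lymphoid markers, Il7r, the interleukin-7 receptor, was detected in 16 and 17 of these cells and Gata3, a transcription factor of T and innate lymphoid cells, in 12 and 9. The receptor of Xcl1 itself, Xcr1, gave no UMI in any of the 118 cells, which held 686133 and 557751 UMIs in all. Other kept cells gave 88 and 85 Xcr1 UMIs among 224139351 and 207104381. At so low a level no UMI would be likely in the chosen cells either, so the 2 sets cannot be compared for Xcr1.

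Of 20 lymphoid transcription factors, 8 could be compared between the kinds and 6 were at least 2-fold higher with an Xcl1 UMI in both libraries: Ets1, Id2, Ikzf2, Ikzf3, Rora and Tcf7. The shares over all genes were 7.73% higher and 13.8% lower. Id2, which is needed for NK and innate lymphoid cells, stood at 596 and 492 CPM against 26.5 and 88.1 CPM. Of 26 cytokine receptors 7 could be compared and 6 were higher: Ifngr1, Il18r1, Il18rap, Il2rb, Il2rg and Kit. Of 25 G2 and M phase genes 21 could be compared and 9 were higher with an Xcl1 UMI, Mki67 and Top2a among them, and 0 were lower. Mki67, a proliferation marker, stood at 307 and 592 CPM with an Xcl1 UMI, at 76.1 and 223 CPM without, and at 245 and 504 CPM in other kept cells.

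In the cells without an Xcl1 UMI, the 8 megakaryocyte and platelet markers summed to 36846 CPM (36164 to 37537) with THP against 20987 CPM (20486 to 21497) with vehicle. With an Xcl1 UMI they summed to 299.5 CPM and 637 CPM, of which 70.4% and 97.4% came from 1 cell in each library. Other kept cells stood at 1394 and 739 CPM, nearly all from Pf4, which stood at 1385 and 729 CPM there. At least 2 of the 8 markers were detected in 16 of 22 and 18 of 23 cells without an Xcl1 UMI, and in 1 of 47 and 1 of 26 with one. Thinned to 2000 UMIs, the shares without an Xcl1 UMI were 63.6% and 60.9%, and 0% with one. In other kept cells the shares were 7.85% and 8.23% before thinning and 0.931% and 0.754% after.

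Pf4, the platelet chemokine platelet factor 4, alone stood at 32368 and 18180 CPM in the cells without an Xcl1 UMI, in 21 of 22 and 18 of 23 cells. Itga2b gave 245 UMIs in 12 THP cells and 296 UMIs in 15 vehicle cells, or 811 and 932 CPM. It gave no UMI in the cells with an Xcl1 UMI. Its levels were 104-fold and 74.5-fold over the count floor of those cells (7.81 and 12.5 CPM), and these folds are not lower limits. Treml1, a receptor stored in platelet alpha granules, stood at 546 and 510 CPM, and Vwf, von Willebrand factor, at 530 and 463 CPM, both at 0 UMIs with an Xcl1 UMI. Gp9, a subunit of the platelet receptor for von Willebrand factor, stood at 407 and 223 CPM in 13 and 10 cells. Clec1b, the podoplanin receptor CLEC-2 of platelets, stood at 712 and 478 CPM in 6 and 9 cells. Of the 25 genes that led this kind, 23 gave no UMI in the cells with an Xcl1 UMI of either library.

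Genes of neighbouring lineages accompanied the platelet genes. Gata1, the transcription factor shared by megakaryocytes and red cell precursors, stood at 119 and 148 CPM without an Xcl1 UMI and at 0 UMIs with one. Hba-a1, an alpha globin of red cells, stood at 348 and 642 CPM, but 68.6% and 73.5% of its UMIs among all chosen cells came from 1 cell in each library. Of 8 stem and multipotent progenitor markers 6 could be compared: Adgrg1, Angpt1 and Meis1 were at least 2-fold higher without an Xcl1 UMI, and Kit and Ly6a at least 2-fold higher with one. Meis1, a homeobox factor of stem cells and megakaryocytes, stood at 172 and 201 CPM without against 7.81 and 12.5 CPM with. Ctla2a, a cathepsin inhibitor-like protein that led all 118 cells over other kept cells after the rule genes, stood at 5567 and 6320 CPM without and at 130 and 83.3 CPM with.

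The cells without an Xcl1 UMI were not uniform. Their summed megakaryocyte and platelet markers ran from 0 to 859.7 per 10000 UMIs (median 27.95) in THP and from 0 to 686 (median 21.9) in vehicle. Innate lymphoid markers reached 72.4 and 66.6 per 10000 in single cells of this kind. At least 2 innate lymphoid markers without 2 megakaryocyte markers were found in 3 cells of each library. Markers of none of the NK, T, innate lymphoid and megakaryocyte lists reached 2 genes in 3 and 2 of them.

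**Figure D2:**
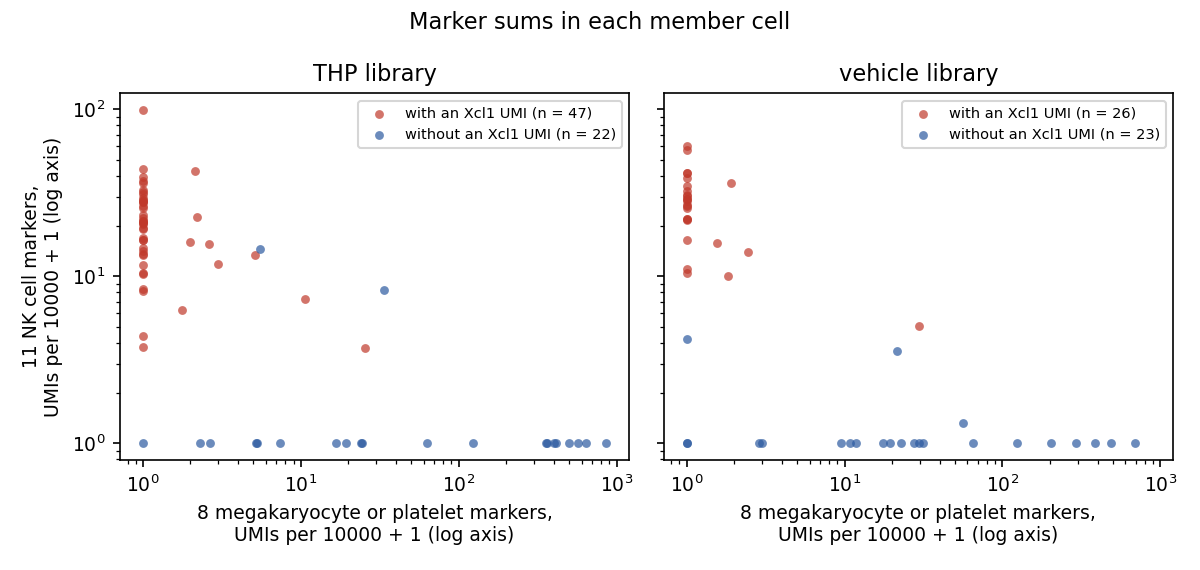
Summed level of the 8 megakaryocyte or platelet markers (x axis) against the 11 NK cell markers (y axis) in every chosen cell, as UMIs per 10000 plus 1 on log axes, THP left and vehicle right. Red points (47 and 26 cells with an Xcl1 UMI) lie along the y axis and blue points (22 and 23 cells without) lie along the x axis, with few cells between.

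The markers of other lineages were uneven between cells. The 9 neutrophil markers, of which the rule limited Retnlg, reached 100 per 10000 UMIs in 4 THP cells and 1 vehicle cell, all with an Xcl1 UMI. They had medians of 11.8 and 9.25 per 10000 with an Xcl1 UMI and 8.83 and 9.64 without, beside 8.09 and 14.1 in other kept cells. They summed to 10459 and 8132 CPM with an Xcl1 UMI, of which 48.8% and 89.7% came from 1 cell in each library, against 24203 and 30629 CPM in other kept cells. The 10 macrophage markers summed to 276 and 662 CPM with an Xcl1 UMI and to 367 and 746 CPM without, and 46.2% to 93.1% of each sum came from 1 cell. Other kept cells stood at 2215 and 1774 CPM. The 10 B cell markers, 2 of which the rule limited, summed to 0 and 16.7 CPM with an Xcl1 UMI and to 19.9 and 28.3 CPM without. Whether cells with markers of several lineages were doublets was not tested, and leaving out the 4 and 1 neutrophil-marked cells changed the shares to 0.536% and 0.437%.

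**Figure D3:**
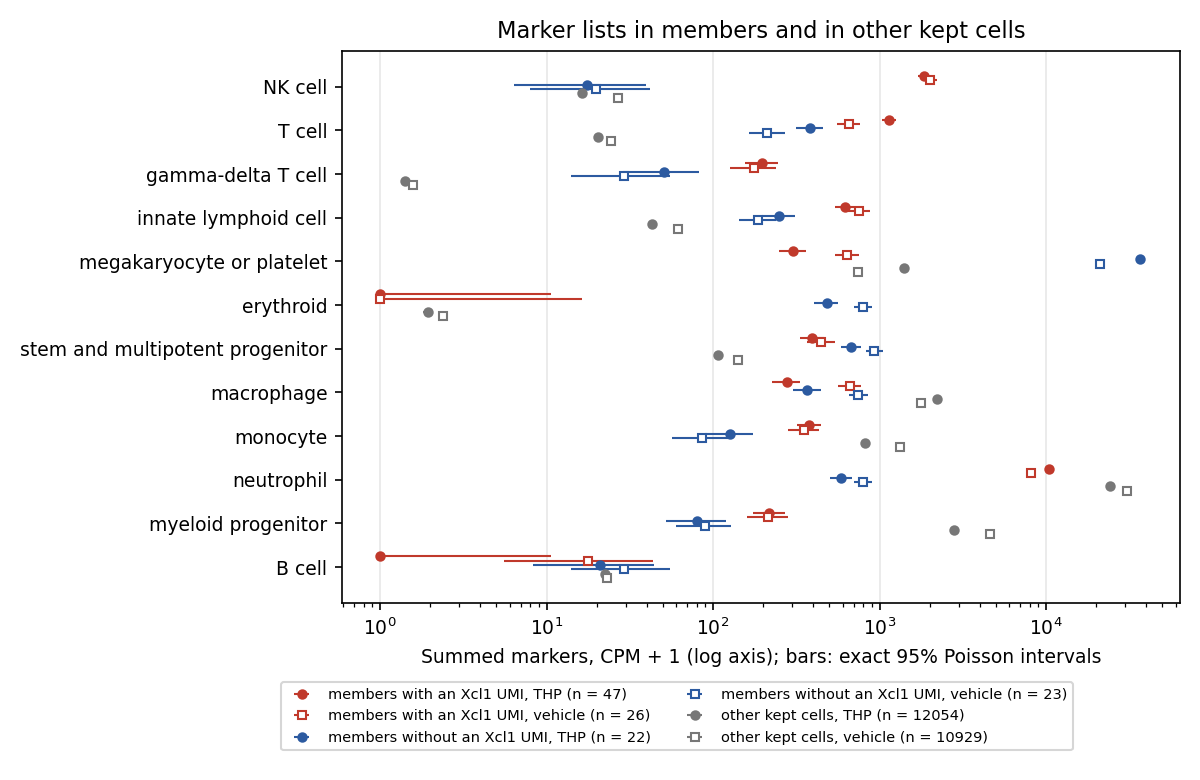
Summed CPM plus 1 (x axis, log) of 12 marker lists in cells with an Xcl1 UMI (red), cells without one (blue) and other kept cells (grey). Filled circles are the THP library, open squares the vehicle library, and bars exact 95% Poisson intervals. The NK cell list separates red (1836 and 2021 CPM) from blue (16.5 and 18.9 CPM), and the megakaryocyte list separates them the other way (299.5 and 637 against 36846 and 20987 CPM).

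Set against all other kept cells, the 118 cells as a whole carried genes of both kinds. Of 3242 genes at 50 CPM or more, 307 (9.47%) were at least 2-fold higher in the chosen cells in both libraries and 287 (8.85%) at least 2-fold lower. The rule used these contrasts in part, so the counts are a description. The leading genes after Nrgn and Xcl1 came from both kinds: Pdzk1ip1, Itga2b, Cavin2, Treml1, Clec1b and Rab27b from the cells without an Xcl1 UMI, and Gimap4, Cd160, Gzmc and Ctsw from those with one. Cavin2, a caveolar coat protein abundant in platelets, stood at 245 and 253 CPM against 0.0625 and 0.106 CPM in other kept cells. Gimap4, a GTPase of lymphocytes, stood at 246 and 325 CPM against 0.625 and 0.719 CPM. Requiring a UMI of each rule gene, which kept 25 and 14 cells, put 11 leading genes, Pdzk1ip1 and Itga2b among them, below other kept cells in at least 1 library, and these 11 gave no UMI in the cells with an Xcl1 UMI.

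The lowest genes were those of the granulocyte and macrophage lineages. Elane, neutrophil elastase, stood at 13.1 and 25.1 CPM in the chosen cells against 486 and 808 CPM in other kept cells. Lyz2, the lysozyme of myeloid cells, stood at 2328 and 1746 CPM against 14253 and 10999 CPM. Of 9 macrophage markers that could be compared, 6 were at least 2-fold lower (Adgre1, C1qa, Cd68, Csf1r, Fcgr1 and Mrc1), as were 7 of 7 neutrophil and 5 of 5 myeloid progenitor markers. Retnlg, among those 7, was limited by the rule, so its low level is a description. Among myeloid transcription factors, Cebpb, Cebpd, Irf5, Irf8 and Spi1 were lower and Gata1 was higher.

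A joint clustering of all kept cells that left out Nrgn and Xcl1 placed 103 of the 118 cells (87.3%) in 1 of 17 clusters, called the main cluster. It held 228 cells, of which the 103 were 45.2%, and both kinds lay in it: 39 THP and 24 vehicle cells with an Xcl1 UMI, and 20 and 20 without. The other 125 cells of the cluster were shallow, with medians of 1646 and 1900 UMIs against 7124 and 7629 in the chosen cells. Their T cell markers summed to 2025 and 2222 CPM, innate lymphoid markers to 1519 and 2065 CPM, NK markers to 618 and 661 CPM, and megakaryocyte markers to 630 and 248 CPM. Cd3e was detected in 18 of 68 and 15 of 57 of them, and Gata3 in 28 and 25. The remaining 15 chosen cells lay in 8 other clusters, 5 of them in a cluster led by MHC class II genes. Across the 17 clusters, the genes whose CPM followed Xcl1 most closely were Cd3e (Spearman rho 0.80), Cd3g (0.79), Gimap7 (0.78), Klrd1 (0.77) and Gimap3 (0.77), among 5720 genes considered. These clusters share 2 libraries, so the values are a description.

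The chosen cells made up 0.569% (69 of 12123; interval 0.443% to 0.720%) of kept cells in the THP library and 0.446% (49 of 10978; 0.330% to 0.590%) in the vehicle library, and the intervals overlapped. Cells with an Xcl1 UMI made up 0.388% (0.285% to 0.515%) and 0.237% (0.155% to 0.347%), and cells without one 0.181% (0.114% to 0.275%) and 0.210% (0.133% to 0.314%), also with overlapping intervals. In all, the libraries held 227129670 and 209092047 UMIs in 13193 and 11584 barcodes, and kept cells had medians of 16113 and 17223 UMIs. Kept cells outside the chosen set with any Nrgn or Xcl1 UMI were 1.48% (1.27% to 1.71%) and 1.06% (0.878% to 1.27%). Of the kept barcodes, 38 occurred in both libraries, and none of the chosen cells was among them.

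Within the chosen cells, THP and vehicle were compared as sums over the cells of each library. Of 3872 genes at 50 CPM or more in 1 library, 66 (1.7%) were at least 2-fold higher in the THP library and 390 (10.1%) at least 2-fold lower. In other kept cells, 3276 genes gave 45 higher (1.37%) and 84 lower (2.56%). The balance of the calls moved with the scaling: TMM factors gave 167 higher and 201 lower, and subtracting the trend on transcript length gave 102 and 177, so 45.4% and 36.6% of calls were higher against 14.5%. TMM moved the median log2 ratio (THP over vehicle, of CPM plus 1) from -0.15 to 0.14. The mix of kinds also differed between the libraries, since 68.1% of THP and 53.1% of vehicle cells had an Xcl1 UMI. With an equal mix of the kinds, 65 were higher and 348 lower.

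Over all genes of the chosen cells, 1.7% were higher with THP and 10.1% lower. Of the 10 cytotoxic granule genes, 6 were compared over the chosen cells, where 2 (Gzmb and Gzmc) were higher with THP, 0 were lower, 5 ratios were above 0 and the median was 0.29. Within the cells with an Xcl1 UMI 7 were compared, 1 (Gzmb) was higher, 2 ratios were above 0 and 5 below, and the median was -0.11. Of 13 lymphocyte cytokines only Ltb reached the level needed to compare it. Gzmb, granzyme B, gave 72 UMIs in 13 THP cells and 4 UMIs in 2 vehicle cells, or 105 CPM (82.1 to 132) and 7.17 CPM (1.95 to 18.4), a log2 ratio of 3.70. Of the 72 UMIs, 63.9% came from 1 cell, and all the cells had an Xcl1 UMI. Xcl1, a rule gene given without weight, stood at 2078 and 912 CPM in the cells with an Xcl1 UMI. Ltb, lymphotoxin beta, which shapes lymphoid tissue, gave 500 UMIs in 55 of 69 THP cells and 170 UMIs in 29 of 49 vehicle cells, 729 CPM (666 to 795) and 305 CPM (261 to 354). Its log2 ratio was 1.25 over all chosen cells and 0.75 within those with an Xcl1 UMI, which is under the 2-fold limit. Within those without one the Ltb ratio was 3.25. Cd82, a tetraspanin of activated lymphocytes, stood at 203 CPM (170 to 239) in 44 THP cells and 52.0 CPM (34.8 to 74.7) in 17 vehicle cells. Its log2 ratio was 1.94 in all, 1.68 within the cells with an Xcl1 UMI and 0.45 in other kept cells, and no cell gave over 13.8% of its UMIs. Trbc2 stood at 171 CPM (141 to 204) and 44.8 CPM (29.0 to 66.2), a log2 ratio of 1.90, and 1.68 within the cells with an Xcl1 UMI.

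Of 11 NK cell markers 8 could be compared within the cells with an Xcl1 UMI, where 109 of 3555 genes (3.07%) were higher and 432 (12.2%) lower. Gzmb and Klre1 were higher, 0 were lower, and the median log2 ratio of the 8 was -0.14, close to -0.17 over all genes. Ncr1, at 185 and 317 CPM, did not reach the 2-fold limit. Of 5 T cell markers Cd3d and Trbc2 were higher and 0 lower. Whether the libraries differed in their share of T cells was not tested. Il7r was lower, at 72.9 and 196 CPM. In the chosen cells without an Xcl1 UMI Il7r was higher with THP (log2 ratio 1.48), and over all chosen cells it did not pass (-0.35).

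Several genes that inflammatory signals switch on through the transcription factor NF-kB were higher in the THP cells. Of 24 listed NF-kB targets, 12 could be compared over the chosen cells. All 12 ratios were above 0, 5 passed 2-fold (Bcl2a1b, Nfkbia, Nfkbib, Relb and Traf1), none was lower, and their median log2 ratio was 0.88 against -0.15 over all genes. The shares over all genes were 1.7% higher and 10.1% lower in the chosen cells, and 1.37% and 2.56% in other kept cells. The same list gave 10 of 13 past 2-fold in other kept cells, with a median of 1.499 against -0.06. Among the chosen cells of the main cluster alone, 8 of 9 ratios were above 0 and 1 passed, with a median of 0.38. Within the cells with an Xcl1 UMI 16 were compared, 3 were higher (Gpr84, Nfkbib and Relb), 1 was lower (Tnfaip3), 13 ratios were above 0, and the median was 0.70. Within those without one 8 were compared, 3 were higher (Ier3, Relb and Tnfaip2), 0 were lower, 7 ratios were above 0, and the median was 0.72. An equal mix of both groups of cells left 3 of 13 past 2-fold, with 12 above 0 and a median of 0.70. Nfkbia, the inhibitor that NF-kB itself induces, stood at 328 CPM (286 to 374) in 52 THP cells and 156 CPM (125 to 192) in 32 vehicle cells, a log2 ratio of 1.07 against 1.55 in other kept cells. Within the cells with and without an Xcl1 UMI that ratio was 0.84 and 0.94, under the 2-fold limit in both, and Traf1 (0.80) and Bcl2a1b (0.93) were also under it within the cells with an Xcl1 UMI. Relb, a subunit of NF-kB, stood at 78.7 CPM (59.1 to 103) and 23.3 CPM (12.4 to 39.9), 1.71 against 1.29. Traf1, a signalling adaptor of TNF receptors, stood at 114 and 44.8 CPM, 1.32 against 2.27.

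Of 21 inflammatory cytokines and chemokines, 6 could be compared over the chosen cells. Ccl3, Ccl4 and Cxcl2 were higher in the THP cells, against 1.7% of all genes, and 3 ratios were below 0. In other kept cells 11 of 13 were higher. Within the cells with an Xcl1 UMI Ccl3 and Ccl4 were higher and Ccl7 lower, with 4 of 6 ratios below 0 and a median of -0.52. Within those without one Ccl2, Ccl4 and Cxcl2 were higher of 4 compared, with a median of 1.19. Single cells gave 48.7% and 73.3% of the Cxcl2 UMIs. Ccl3, which attracts monocytes and T cells, gave 54 UMIs in 11 THP cells and 6 UMIs in 5 vehicle cells, 78.7 and 10.8 CPM, and Ccl4 gave 86 in 11 and 13 in 3, 125 and 23.3 CPM. Single cells gave 53.7% and 60.5% of the THP UMIs of this pair, and reads of these related neighbours may be shared. Ccl5 stood at 239 and 310 CPM, a log2 ratio of -0.37. In other kept cells Ccl4 stood at 230 and 30.2 CPM, and the part of free RNA from those cells in these counts was not tested.

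MHC class II genes, which present antigen to T cells, were higher with THP over the cells with an Xcl1 UMI. Few of those cells held H2-Aa (6 and 1), while 19 and 9 held Cd74. Over all chosen cells H2-Aa, H2-Ab1, H2-Eb1 and Cd74, 4 of 5 genes compared, were at least 2-fold higher with THP, against 1.7% of all genes. All 6 compared in other kept cells had ratios below 0 and none passed, with a median of -0.36. Within the cells with an Xcl1 UMI 4 of 4 were higher, with a median of 5.64. Within those without one 0 of 5 passed, with 2 ratios above 0, 3 below and a median of -0.11. H2-Aa gave 283 UMIs in 11 THP cells and 60 UMIs in 3 vehicle cells, 412 and 108 CPM, with 39.6% and 96.7% from 1 cell. Within the cells with an Xcl1 UMI it stood at 602 CPM in 6 cells and 4.17 CPM in 1. In the THP library 4 of the chosen cells lay in the cluster led by MHC class II genes, against 1 in the vehicle library. Among the chosen cells of the main cluster alone, 1 gene of the list reached 50 CPM, and it stood at a log2 ratio of 0.97 and did not pass.

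**Figure D4:**
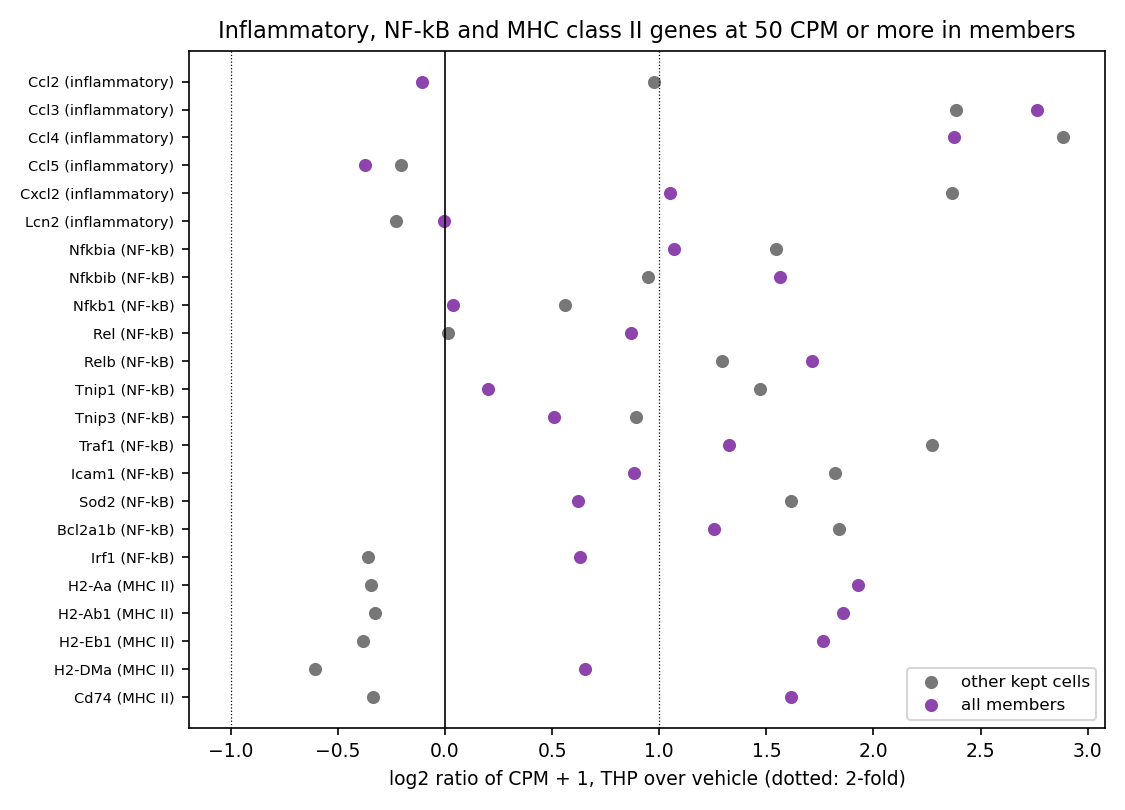
Log2 ratio of CPM plus 1, THP over vehicle (x axis), for the inflammatory, NF-kB and MHC class II genes that reached 50 CPM in the chosen cells. Purple points are the 118 chosen cells and grey points other kept cells; dotted lines mark 2-fold. The 12 NF-kB targets lie above 0 in the chosen cells, and the MHC class II genes lie above 0 there and below 0 in other kept cells.

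Platelet genes in the cells without an Xcl1 UMI were compared among 4029 genes, of which 190 (4.72%) were higher and 547 (13.6%) lower in the THP library. Ppbp, a platelet chemokine precursor, stood at 1817 and 526 CPM and Gp1bb, a platelet receptor subunit, at 152 and 34.6 CPM, and both were higher. The other 6 of the 8 markers did not pass 2-fold, and 7 of the 8 ratios were above 0. Over all chosen cells the direction of the list moved with the cells and weights used. There 2 of 8 were higher, 5 ratios were above 0 and the median was 0.45, but without the top 5% of cells by UMIs 1 of 7 was higher and 2 were lower, with a median of -0.03, and with equal weight per cell 3 ratios were above 0 and 3 below, with a median of -0.01. Itga2b stood at 811 and 932 CPM and Treml1 at 546 and 510 CPM. Npy, neuropeptide Y, stood at 5371 and 793 CPM, but 95.4% of its UMIs in the THP library came from 1 cell and 73.4% in the vehicle library.

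The lowest genes in the THP library came mainly from the cells without an Xcl1 UMI, which gave over 50% of the vehicle UMIs of 14 of the 15 lowest, and for 8 of the 15 a single cell gave over 50%. Mtus1, a microtubule-associated protein, gave 2 UMIs in 1 THP cell and 41 UMIs in 15 vehicle cells, 2.91 CPM (0.353 to 10.5) and 73.5 CPM (52.8 to 99.7), and its log2 ratio was -4.25 against -1.67 in other kept cells. The clock repressors Nr1d1 and Nr1d2 stood at 10.2 and 140 CPM and at 4.37 and 61.0 CPM, in 5 and 10 cells and in 3 and 13 cells. Their log2 ratios of -3.65 and -3.53 compared with -0.09 and -0.67 in other kept cells. Single cells gave 71.8% and 47.1% of the vehicle UMIs of this pair. Of the histone genes, which encode chromatin proteins and resemble each other closely, Hist1h4h stood at 13.1 and 213 CPM and Hist1h4i at 146 and 1108 CPM. Gadd45g, a stress-response gene, stood at 96.2 and 735 CPM with 90% of the vehicle UMIs in 1 cell. Of the 390 lower genes, 29 took at least 50% of their vehicle UMIs from 1 cell.

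Of 19 S phase and 22 G2 and M phase genes compared over the chosen cells, 0 passed 2-fold in either direction, with median log2 ratios of 0.05 and 0.15. With TMM factors 2 S phase genes were higher, and among the chosen cells of the main cluster 4 G2 and M phase genes were lower, with a median of -0.47. The G2 and M phase list moved the other way without the top 5% of cells by UMIs (3 higher, 0 lower, median 0.43), with the stricter limit of 6 on the summed rule genes (2 higher, median 0.52) and with equal weight per cell (2 higher, median 0.40). Within the cells with an Xcl1 UMI 2 of 25 G2 and M phase genes were lower (Bub1b and Kif20b) and 1 of 19 S phase genes higher (Uhrf1). Within those without one 2 of 12 G2 and M phase genes were lower (Mki67 and Top2a) and 0 of 14 S phase genes passed. Over all genes 3.07% were higher and 12.2% lower with an Xcl1 UMI, and 4.72% and 13.6% without. Over all chosen cells, of 9 cytokine receptors 0 passed, and of 3 interferon-stimulated genes 0 passed. Within the cells without an Xcl1 UMI 6 receptors were compared, with Il7r higher, from the few cells given above, and Csf1r, Ifnar1, Ifngr1 and Il6ra lower. Of 4 interferon-stimulated genes compared there, Ifi47 and Isg15 were higher. Within the cells with an Xcl1 UMI 1 of 10 receptors (Il7r) was lower and 0 of 4 interferon-stimulated genes passed. Of the macrophage markers over all chosen cells, 4 of 8 compared were lower in the THP cells (Apoe, C1qb, C1qc and Mrc1), 0 were higher, and their median log2 ratio was -1.07 against 0.35 for 9 in other kept cells. Over all genes of the chosen cells, 10.1% were lower and 1.7% higher. Of the macrophage-marker UMIs over all chosen cells, 35.0% with THP and 37.4% with vehicle came from 1 cell, and none of the list reached 50 CPM among the chosen cells of the main cluster.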

How the data were processed

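Droplet single-cell RNA was measured in 1 THP and 1 vehicle library. Per the file headers, the deposited matrices hold raw UMI counts per gene and barcode (format version 2, software version 3.1.0). The submitters' processing notes name Cell Ranger, bcl2fastq, STAR and mm10, and no other setting is given in the sources used. Barcodes with at least 500 genes, 1000 UMIs and at most 10% mitochondrial UMIs were kept. Doublets were not removed. UMIs were summed over cells and scaled to CPM. A gene was counted as higher or lower at 50 CPM or more and at least 2-fold on the log2(CPM + 1) scale (between sets of cells, in both libraries), which is a rule of size and not a test. The rule for THP against vehicle was written again for a check on simulated counts. Those had Poisson noise only, with changes and levels above the limits used here. The rule between sets of cells was not part of that check. edgeR (4.0.16) gave TMM factors for 1 alternative. Clusters came from scanpy (1.11.5) and igraph (0.11.9), with 2000 variable genes, 30 components, 15 neighbours and resolution 0.5. Members and lists were chosen with earlier results of these data known. Named genes were the rule genes, the 25 highest and 10 lowest over other cells, the 15 highest and 15 lowest ratios, up to 4 high and 2 passing genes per list, 8 defining genes and 5 that followed Xcl1. Genes named outside that rule (as Vwf and Gp9) were picked after their values were seen. Near-identical genes (Ccl3 and Ccl4, histones, Gimap, globins, Trbc1 and Trbc2) are uncertain where counting could split them. The alternatives changed the gene rule, cell filter, depth limit, cluster, weighting, pseudocount, CPM and fold limits, scaling and transcript-length trend. A few results that the naming rule would include are not reported here.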

Additional observations from a re-analysis of the deposited data

How the results depend on the processing

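No paired analysis was possible because the labels give 1 library per group and no replicate numbers. Requiring a UMI of each rule gene moved the shares to 0.206% (THP) and 0.128% (vehicle). The other alternatives gave 0.487% to 0.582% and 0.364% to 0.451%. Genes higher in the chosen cells than in other kept cells numbered 135 at 100 CPM, 629 at 20 CPM, 521 at 1.5-fold and 196 at 3-fold, and lower genes 181, 449, 483 and 131. Genes higher in THP numbered 219 with a UMI of each rule gene, 124 without the top 5% of cells by UMIs, 103 in the main cluster, 132 with equal weight per cell, 35 at 100 CPM, 198 at 20 CPM, 264 at 1.5-fold, 23 at 3-fold, 167 with TMM factors and 102 after the length trend was removed. Lower genes numbered 610 with a UMI of each rule gene, 134 at 100 CPM, 875 at 20 CPM, 1032 at 1.5-fold, 95 at 3-fold, 201 with TMM factors and 177 after the length trend. The TMM and length settings change the scale itself, and the CPM and fold settings the number of genes that can pass; for the others the cause was not tested. With a UMI of each rule gene, log2 ratios of THP over vehicle turned to 0.43 for Gpnmb, 4.14 for Cxcl14, 1.67 for Gadd45g and 2.37 for Apoe, and in the main cluster to 1.505 for Gpnmb, 0.47 for Lrp1 and 1.32 for Apoe. With a UMI of each rule gene, log2 levels over other kept cells, in the lower library, turned to -1.88 for Pdzk1ip1, -1.61 for Itga2b, -0.86 for Cavin2, -1.17 for Treml1, -1.34 for Clec1b, -1.09 for Rab27b, -1.20 for Hba-a1, -0.71 for Alox12, -0.43 for Gp5, -0.47 for Gnaz and -0.47 for Myct1. That setting keeps cells with an Xcl1 UMI only. Of 510 single-gene values of THP over vehicle under the alternatives, 451 kept direction and call, 52 fell short of the limit and 7 reversed. Leaving out neutrophil-marked cells, leaving out the largest cell and the equal mix were chosen after seeing the data. The floor of 3 counts stands at 7.81 and 12.5 CPM in the cells with an Xcl1 UMI. The exact interval of a gene without a UMI reaches 9.61 and 15.4 CPM there, so folds over the floor are not lower limits.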
